A study of Homo sapiens with 8 samples.

Results

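The unfolded protein response and ER folding genes were followed across 8 Affymetrix arrays of a human myeloma drug-resistance experiment. The set has 36 listed genes. A gene was taken as measured where a transcript cluster, the array's unit of probes for 1 transcript, carried that gene's symbol alone in the platform annotation, and the cluster of highest mean signal stood for it. By this rule 35 of the 36 genes were measured, out of 18417 genes in all. PDIA3 was found only in 2 clusters annotated to several symbols and has no value here. By textbook role, 7 measured genes were placed on the PERK/ATF4 side, 13 on the ATF6 side and 12 on the IRE1 side, and P4HB, CANX and CREB3L2 on none.

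The arrays compare U266/LR7, a melphalan-resistant derivative, with U266/s, the parental line. Both are established multiple myeloma (plasma cell tumour) lines. Melphalan, a drug that alkylates DNA, was used at 100 µM. Inhibitors of 2 microRNAs, miR-221 and miR-222, were transfected at 100 nM, and cells were collected for RNA at 12 h. The 8 groups are U266/LR7 with melphalan and inhibitors, with melphalan, with inhibitors and with neither, and the same 4 of U266/s, with 1 array each. The cells without inhibitors received a negative control by the protocol text, whereas the transfection tag of the melphalan-alone arrays of both lines reads none. If that tag is right, the melphalan and inhibitor differences also hold a difference in transfection. U266/LR7 is a single resistant line, and no label tells whether the RNA samples were independent cultures. All p-values hence rest on the spread of single arrays around a fit, which may be technical. Unless stated, the fit gives the inhibitors the same effect in both lines, with and without melphalan. Departures from that count as spread.

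The unfolded protein response adjusts the endoplasmic reticulum (ER) to its load of client proteins and is known for its role in antibody-secreting plasma cells and the tumours that arise from them. It has 3 membrane sensors. PERK (gene EIF2AK3) phosphorylates eIF2alpha, which slows translation but favours ATF4, a transcription factor shared with the wider integrated stress response. ATF6 is cut in the Golgi to release a transcription factor that raises ER chaperones, and IRE1 (gene ERN1) splices XBP1 mRNA, whose product raises genes of ER-associated degradation (ERAD), translocation and export. The sides overlap, since several targets answer to more than 1 sensor, and arrays of this kind measure neither the phosphorylation, the cleavage nor the splicing.

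Promoter sequences are shown first because elements bound by ATF6, XBP1 and ATF4 are known in promoters of response genes. The search was not used to place a gene on a side. The textbook roles that were used are, however, not independent of such elements. A higher share in these promoters than in all promoters was therefore to be expected and is no independent result. RefSeq promoters (GRCh38.p14, 250 bases before to 50 after a transcript start, the first listed for each gene) were available for 34 of the 36 genes. The ER stress response element (ERSE), CCAAT and CCACG with any 9 bases between them, bound by ATF6 with NF-Y, and the related ERSE-II, ATTGG and CCACG with any 1 base between them, were searched on both strands, as were the 2 shorter elements named next. One or the other was present in 8 of the 34 promoters (23.5%), against 37 of 27305 promoters of the same length (0.136%). Of these 8, 7 belong to the ATF6 side (HSPA5, HSP90B1, CALR, CRELD2, SDF2L1, HERPUD1 and HYOU1) and 1 is CANX. The C/EBP-ATF response element, TGATGNAA, through which ATF4 acts, was found in ASNS, CHAC1 and HERPUD1, and in 3.67% of all promoters. The element TGACGTGG, an ATF6 and XBP1 binding sequence, was found in HYOU1, where it overlaps the distal ERSE-II, and in 0.795% of all promoters. The lines below give, on the strand of the gene, the element in capitals with 12 flanking bases on each side, for the BiP gene, for HSP90B1 and HERPUD1, whose melphalan responses differed between the lines, for CRELD2 and SDF2L1, which differed between the lines with melphalan, and for 2 ATF4 targets.
HSPA5, ERSE, chr9:125241379-125241421 (minus strand): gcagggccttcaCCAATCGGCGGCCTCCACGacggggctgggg
HSP90B1, ERSE, chr12:103930204-103930246 (plus strand): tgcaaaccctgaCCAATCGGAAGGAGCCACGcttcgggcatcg
CRELD2, ERSE on the opposite strand, chr22:49918542-49918584 (plus strand): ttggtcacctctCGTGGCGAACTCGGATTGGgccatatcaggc
SDF2L1, ERSE-II on the opposite strand, chr22:21642102-21642136 (plus strand): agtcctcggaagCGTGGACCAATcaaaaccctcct
HERPUD1, ERSE-II, chr16:56932013-56932047 (plus strand): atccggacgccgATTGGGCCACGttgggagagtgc
HERPUD1, C/EBP-ATF element on the opposite strand, chr16:56931954-56931985 (plus strand): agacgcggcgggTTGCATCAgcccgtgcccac
CHAC1, C/EBP-ATF element on the opposite strand, chr15:40953250-40953281 (plus strand): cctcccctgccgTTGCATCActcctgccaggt
ASNS, C/EBP-ATF element, chr7:97872457-97872488 (minus strand): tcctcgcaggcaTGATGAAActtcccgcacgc
The elements begin 66 bases before the start of HSPA5, 194 before HSP90B1, 117 (ERSE-II) and 176 (C/EBP-ATF) before HERPUD1, 209 before CHAC1 and 68 before ASNS, whose listed start lies inside the longest annotated span of that gene, as does that of CANX. No gene of the IRE1 side with a promoter held any of these elements. HSP90B1 has a second ERSE at 89 bases. A match describes these letters only and shows no binding in these cells.

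Signals are on the deposited log2 scale, so that a difference of 1 is a doubling. All 35 genes lay above the array median on all 8 arrays, with values between 7.45 and 13.18, over the arrays' lower quartiles of 5.81 to 6.02. Of 8 plasma cell markers, 5 (SDC1, TNFRSF17, IRF4, PRDM1 and XBP1) were above the array median on every array, and CD38, MZB1 and SLAMF7 on 4 to 5. Of 4 markers each, 3 T cell, 3 myeloid, 3 stromal and 2 epithelial ones were below the median on every array, among them CD3D, CD3G, LYZ and DCN, which were below the lower quartile throughout. CD8A was above the median on 6 arrays, COL1A1 on 7 and KRT18 on 8. List means ranged over the U266/LR7 and the U266/s arrays from 6.06 to 6.3 and 5.91 to 6.27 (T cell), 5.64 to 5.85 and 5.82 to 6.37 (myeloid), 6.0 to 6.19 and 6.05 to 6.28 (stromal) and 6.45 to 6.67 and 6.82 to 7.21 (epithelial). The distribution of signals was narrower on the U266/s melphalan arrays, with an interquartile range of 2.80 with inhibitors and 2.75 without, against 3.08 to 3.31 on the other 6 arrays. The myeloid marker CD14 was at 7.94 and 7.77 on the U266/s arrays with melphalan (with and without inhibitors), against 6.5 and 6.26 on the U266/s arrays without, and the mean over the 4 myeloid markers was 6.36 against 5.89. The epithelial marker EPCAM was at 6.43 and 5.83 on the U266/s arrays with melphalan, against 7.74 and 8.05 without, and at 5.25 to 5.48 on the U266/LR7 arrays. The part of these values in the U266/s differences below was not tested.

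**Figure D1:**
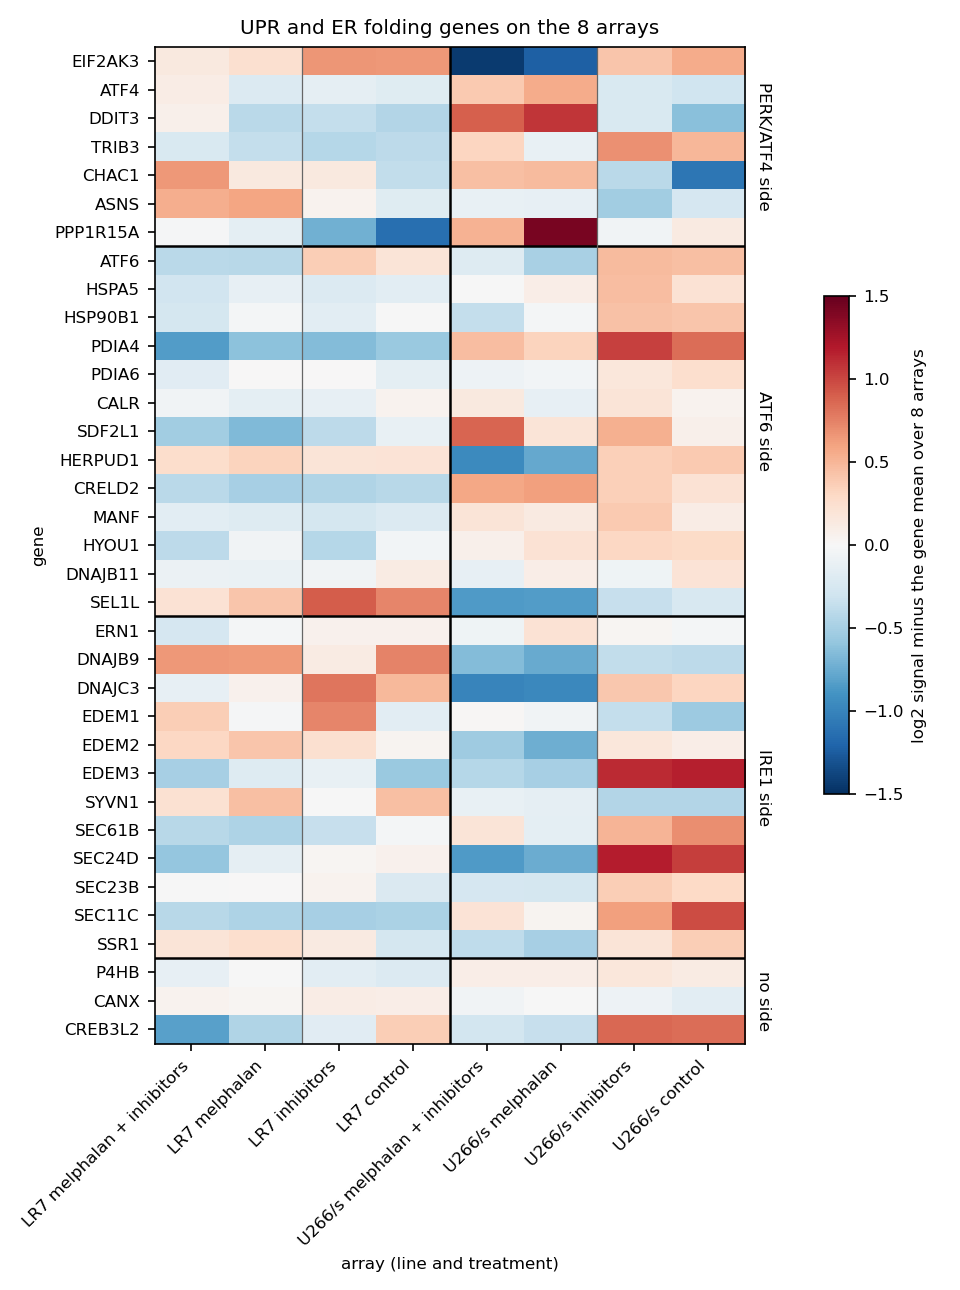
Heat map of the 35 genes (rows, by side of the response) on the 8 arrays (columns, U266/LR7 left and U266/s right of the heavy line), coloured by the log2 signal minus the gene's mean over the arrays, with colours ending at 1.5 in either direction. The U266/s melphalan columns are dark blue for EIF2AK3 (7.56 and 7.77) and red for DDIT3 (10.37 and 10.55), whereas the 4 U266/LR7 columns of both genes vary less.

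The first comparison asks how each line's response genes answered melphalan, each line by 2 arrays with against 2 arrays without the drug (limma, all 8 arrays and 18417 genes in 1 fit, Benjamini-Hochberg adjusted p under 0.05 as the threshold). In U266/LR7, 5 of the 35 genes passed, ASNS higher and 4 lower, where 6.62% of all genes passed, 3.02% higher and 3.61% lower. In U266/s, 20 of the 35 passed, 4 higher and 16 lower, where 43.4% of all genes passed, 18.4% higher and 24.9% lower. Among genes above the median signal, where all 35 lie, 57.6% passed in U266/s, 18.6% higher and 39.0% lower, so the genes' 57.1% is near that of equally bright genes. The median log2 difference of the 35 genes was -0.01 in U266/LR7 and -0.29 in U266/s, beside 0.05 and 0.08 over all genes. The 4 genes that rose in U266/s, DDIT3, CHAC1, PPP1R15A and ATF4, are all on the PERK/ATF4 side, and on the ATF6 and IRE1 sides 5 of 13 and 8 of 12 genes fell and 0 rose. The falls numbered 3 and 5 after cyclic loess, and 4 on the IRE1 side without the U266/s array with neither agent. That 0 holds for the deposited values with all 8 arrays. EDEM1 rose under each of the 3 further normalizations (quantile, median centring and cyclic loess), SYVN1 under quantile and cyclic loess and CRELD2 under quantile, and EDEM1 and SYVN1 also rose without either of the U266/LR7 arrays that had no melphalan. The split of calls, 4 higher and 16 lower, was 8 and 14 after quantile normalization, 5 and 16 after median centring and 7 and 11 after cyclic loess. Of the 20 U266/s calls, 12 held under all alternatives run (EIF2AK3, ATF4, DDIT3, CHAC1, ATF6, HSP90B1, HERPUD1, DNAJC3, EDEM2, EDEM3, SEC24D and CREB3L2). Leaving out the U266/s array with neither agent ended the calls of TRIB3, PPP1R15A, SEL1L, SEC61B, SEC23B, SEC11C and SSR1, leaving out the U266/s melphalan array those of TRIB3, PPP1R15A, PDIA4, SEC61B and SEC11C, and leaving out the U266/s inhibitors array those of TRIB3, PPP1R15A and PDIA4.

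**Figure D2:**
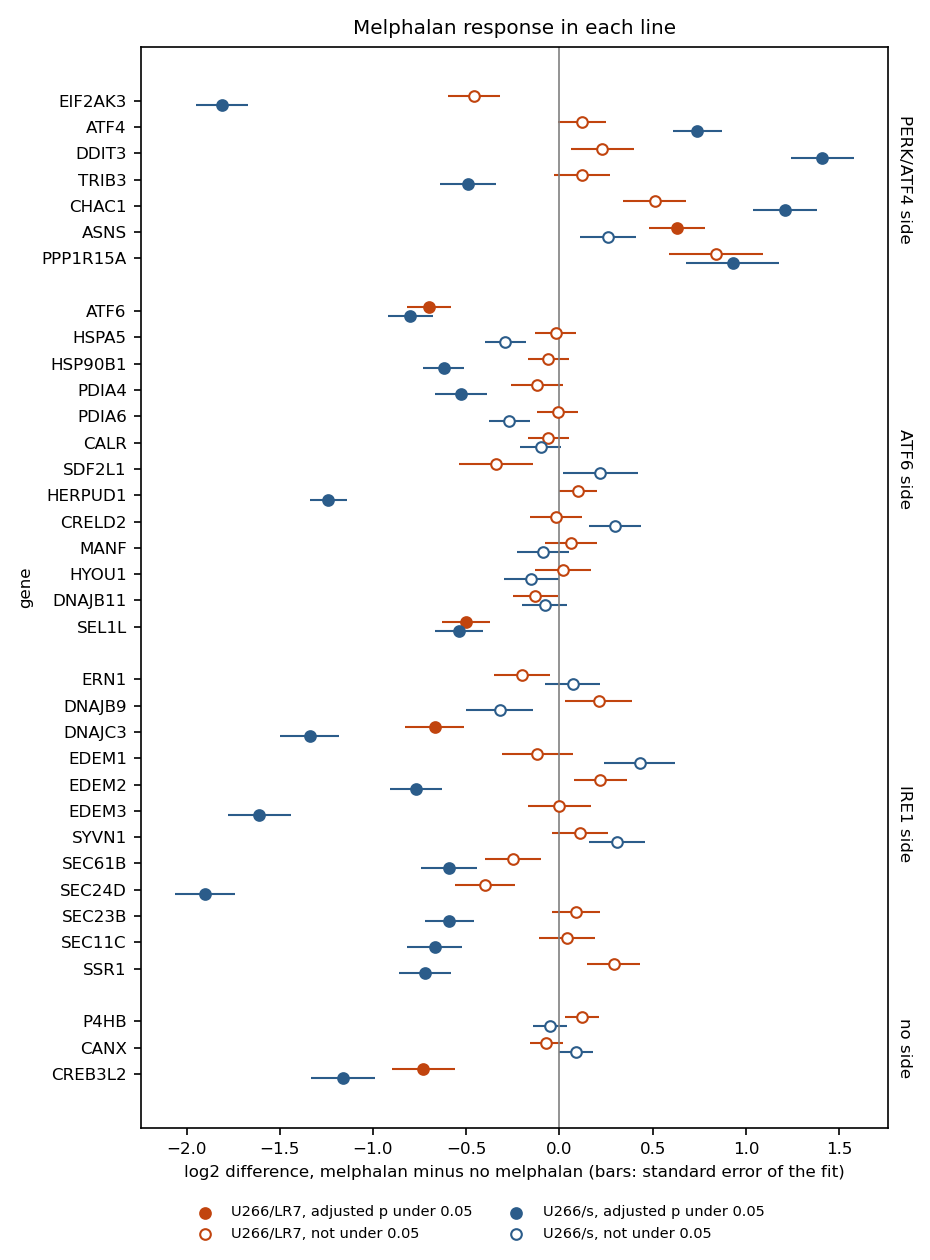
Log2 difference between arrays with and without melphalan (x axis) for each gene (y axis, grouped by side), U266/LR7 in orange above U266/s in blue, with the standard error of the fit as bars and filled points for an adjusted p under 0.05. In U266/s, DDIT3 (1.41) and CHAC1 (1.21) lie farthest right and SEC24D (-1.90) and EIF2AK3 (-1.81) farthest left, whereas all U266/LR7 points lie between -0.73 and 0.84.

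On the PERK/ATF4 side the sensor gene fell in U266/s, while 4 of the 6 other genes rose, 1 fell and 1 did not pass. In the value pairs that follow, the array with inhibitors is given before the one without. EIF2AK3 was at 9.14 and 9.24 with melphalan, against 9.66 and 9.65 without, in U266/LR7, and at 7.56 and 7.77, against 9.41 and 9.55, in U266/s. The U266/s melphalan arrays stand apart from the other 6, and EIF2AK3 fell there by 1.81 ± 0.14 (SE, adjusted p = 5.13e-06). In U266/LR7 the difference of -0.46 ± 0.14 did not pass (adjusted p = 0.0766). The responses differed by 1.35 ± 0.20 (U266/LR7 minus U266/s, adjusted p = 0.000727).

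ATF4, the transcription factor that PERK signalling brings to translation, was at 11.54 and 11.22 with melphalan, against 11.29 and 11.24 without, in U266/LR7, and at 11.82 and 11.98, against 11.20 and 11.13, in U266/s. It rose by 0.74 ± 0.13 in U266/s (adjusted p = 0.000862) and did not pass in U266/LR7 (0.12 ± 0.13, adjusted p = 0.704). A second, dimmer ATF4 cluster gave a larger rise in U266/s (1.52) and a smaller difference in U266/LR7 (0.05). DDIT3, which encodes the death-linked factor CHOP, was at 9.55 and 9.07 with melphalan, against 9.12 and 9.03 without, in U266/LR7, and at 10.37 and 10.55, against 9.24 and 8.85, in U266/s. Both U266/s melphalan arrays exceed every other array for DDIT3, a rise of 1.41 ± 0.17 in that line (adjusted p = 7.12e-05), and the response of U266/LR7 (0.23 ± 0.17) differed from it by -1.18 ± 0.24 (adjusted p = 0.00498). The ATF4 responses also differed (-0.62 ± 0.18, adjusted p = 0.0308), but 5 of the 8 fits that left out 1 array lost that call.

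Of the 4 other PERK/ATF4-side genes, CHAC1, a glutathione-degrading enzyme induced by ATF4, was at 10.03 and 9.52 with melphalan, against 9.52 and 9.01 without, in U266/LR7, and at 9.83 and 9.85, against 8.97 and 8.30, in U266/s. It rose by 1.21 ± 0.17 in U266/s (adjusted p = 0.000223), and its 0.51 ± 0.17 in U266/LR7 did not pass (adjusted p = 0.115). The difference between these responses did not pass (-0.70 ± 0.25, adjusted p = 0.0622), although it passed under each of the 3 further normalizations. PPP1R15A, which encodes GADD34, the phosphatase subunit that reverses eIF2alpha phosphorylation, was at 9.65 and 9.52 with melphalan, against 8.95 and 8.54 without, in U266/LR7, and at 10.19 and 11.09, against 9.62 and 9.80, in U266/s. Its differences were alike in size, 0.84 ± 0.25 in U266/LR7 (adjusted p = 0.0669) and 0.93 ± 0.25 in U266/s (adjusted p = 0.0100), and the difference between them was -0.09 ± 0.35 (adjusted p = 0.876). The U266/LR7 value passed when genes below the median signal were left out, and with all 2-way interactions in the model. ASNS, the asparagine synthetase gene and a classic ATF4 target, was at 9.93 and 9.98 with melphalan, against 9.44 and 9.20 without, in U266/LR7, and at 9.27 and 9.26, against 8.87 and 9.14, in U266/s. It was the 1 gene called higher in U266/LR7 (0.63 ± 0.15, adjusted p = 0.0350), while its 0.26 ± 0.15 in U266/s and the difference between lines (0.37 ± 0.22) did not pass. Its U266/LR7 call was lost with all 2-way interactions in the model and with transfection as 3 levels. TRIB3, a pseudokinase that feeds back on ATF4 signalling, fell in U266/s by 0.49 ± 0.15 (adjusted p = 0.0237) with arrays at 8.21 and 7.77, against 8.57 and 8.38, and had a difference of 0.12 ± 0.15 in U266/LR7. Its 2 responses did not differ past the threshold (0.61 ± 0.22, adjusted p = 0.0649).

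Only part of the ATF6 side moved. ATF6 itself was at 10.90 and 10.89 with melphalan, against 11.68 and 11.50 without, in U266/LR7, and at 11.11 and 10.82, against 11.78 and 11.76, in U266/s. It fell in both lines, by 0.70 ± 0.12 in U266/LR7 (adjusted p = 0.00685) and by 0.80 ± 0.12 in U266/s (adjusted p = 0.000305). The difference between the responses, 0.11 ± 0.17, did not pass (adjusted p = 0.696). HSPA5, which encodes BiP, the main ER chaperone, was at 12.33 and 12.50 with melphalan, against 12.41 and 12.46 without, in U266/LR7, and at 12.61 and 12.72, against 13.08 and 12.83, in U266/s. Its differences were -0.02 ± 0.11 in U266/LR7 and -0.29 ± 0.11 in U266/s, and neither passed (adjusted p = 0.961 and 0.0580). The U266/s value passed, with the same sign, when genes below the median signal were left out, after quantile normalization, with transfection as 3 levels, and without any of 3 arrays without melphalan (both of U266/LR7 and the U266/s array with neither agent).

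HERPUD1, an ERAD scaffold at the ER membrane, was at 12.21 and 12.28 with melphalan, against 12.14 and 12.15 without, in U266/LR7, and at 10.99 and 11.18, against 12.31 and 12.34, in U266/s. It fell by 1.24 ± 0.10 in U266/s (adjusted p = 7.62e-06), had a difference of 0.10 ± 0.10 in U266/LR7, which did not pass, and had the smallest adjusted p of the 35 genes for the difference between the responses (1.34 ± 0.15, adjusted p = 0.000197). HSP90B1, the ER chaperone GRP94, was at 12.09 and 12.32 with melphalan, against 12.19 and 12.35 without, in U266/LR7, and at 11.99 and 12.32, against 12.79 and 12.77, in U266/s. It fell by 0.62 ± 0.11 in U266/s (adjusted p = 0.000749), and the responses differed by 0.56 ± 0.15 (adjusted p = 0.0196). SEL1L, the adaptor of the HRD1 ERAD ligase, was at 10.87 and 11.07 with melphalan, against 11.56 and 11.39 without, in U266/LR7, and at 9.81 and 9.82, against 10.31 and 10.41, in U266/s. The 2 falls were near equal, 0.50 ± 0.13 in U266/LR7 (adjusted p = 0.0463) and 0.54 ± 0.13 in U266/s (adjusted p = 0.00694).

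Of the 8 other ATF6-side genes, PDIA4, a protein disulfide isomerase, fell in U266/s by 0.53 ± 0.14 (adjusted p = 0.00929), and the 7 others did not pass in either line. These were the disulfide isomerase gene PDIA6, the lectin chaperone CALR, the BiP co-chaperone genes SDF2L1 and DNAJB11, the nucleotide exchange factor HYOU1, and MANF and CRELD2. Their differences lay between -0.34 and 0.06 in U266/LR7 and between -0.27 and 0.30 in U266/s. Of the 8 genes whose promoters hold an ERSE or ERSE-II, HERPUD1 and HSP90B1 fell in U266/s and the other 6 did not pass, and none of the 8 passed in U266/LR7. Of all genes, 24.9% fell in U266/s and 6.62% passed in U266/LR7. Among genes above the median signal these shares were 39.0% and 10.1%.

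The IRE1 side held the largest fall of the set, in U266/s. ERN1, the IRE1 gene, was at 8.67 and 8.90 with melphalan, against 8.99 and 8.99 without, in U266/LR7, and at 8.86 and 9.14, against 8.96 and 8.90, in U266/s. Neither difference passed (-0.20 ± 0.15 and 0.07 ± 0.15), and the U266/s groups overlapped. SEC24D, a cargo-binding coat subunit of COPII vesicles that leave the ER, was at 8.51 and 8.96 with melphalan, against 9.12 and 9.15 without, in U266/LR7, and at 8.24 and 8.35, against 10.27 and 10.13, in U266/s. It fell by 1.90 ± 0.16 in U266/s (adjusted p = 7.87e-06), and the responses differed by 1.50 ± 0.23 (adjusted p = 0.000920). EDEM3, a mannosidase that marks glycoproteins for ERAD, was at 9.69 and 9.99 with melphalan, against 10.07 and 9.63 without, in U266/LR7, and at 9.76 and 9.69, against 11.31 and 11.35, in U266/s. Only the 2 U266/s arrays without melphalan were high. EDEM3 fell by 1.61 ± 0.17 in U266/s (adjusted p = 2.54e-05), its U266/LR7 groups overlapped, and the responses differed by 1.60 ± 0.24 (adjusted p = 0.000794).

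DNAJC3, the co-chaperone p58IPK that also inhibits PERK, was at 8.90 and 9.08 with melphalan, against 9.82 and 9.50 without, in U266/LR7, and at 8.03 and 8.05, against 9.42 and 9.34, in U266/s. It fell in both lines, by 0.67 ± 0.16 in U266/LR7 (adjusted p = 0.0285) and by 1.34 ± 0.16 in U266/s (adjusted p = 5.02e-05). EDEM2, another ERAD mannosidase, was at 10.04 and 10.15 with melphalan, against 9.97 and 9.78 without, in U266/LR7, and at 9.20 and 9.0, against 9.91 and 9.83, in U266/s. It fell by 0.77 ± 0.14 in U266/s (adjusted p = 0.00111), and the responses differed by 0.99 ± 0.20 (adjusted p = 0.00423). SSR1, a subunit of the translocon-associated TRAP complex, was at 11.72 and 11.77 with melphalan, against 11.66 and 11.26 without, in U266/LR7, and at 11.14 and 11.02, against 11.72 and 11.89, in U266/s. Its fall of 0.72 ± 0.14 in U266/s (adjusted p = 0.00163) stood beside 0.29 ± 0.14 in U266/LR7, which did not pass, and the responses differed by 1.01 ± 0.20 (adjusted p = 0.00351).

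All 5 translocation and export genes fell in U266/s, namely SEC24D, SSR1, the signal peptidase subunit SEC11C (-0.67 ± 0.15), the translocon subunit SEC61B (-0.59 ± 0.15) and the COPII subunit SEC23B (-0.59 ± 0.13), and 0 of the 5 passed in U266/LR7. Of all genes, 24.9% fell in U266/s and 6.62% passed in U266/LR7, and of genes above the median signal 39.0% and 10.1%. The difference between the responses passed for 4 of the 5, and not for SEC61B (0.34 ± 0.21, adjusted p = 0.279). It passed for 23.9% of all genes and 35.6% of those above the median signal. SEC61B, SEC11C and SEC23B were among the 6 U266/s calls that were lost under at least 1 further normalization. DNAJB9 (the BiP co-chaperone ERdj4), the ERAD mannosidase-like gene EDEM1 and SYVN1, which encodes the HRD1 ubiquitin ligase, did not pass in either line, with -0.32, 0.43 and 0.31 in U266/s. Among the genes with no side, CREB3L2, an ER-membrane transcription factor of secretory cells, was at 9.19 and 9.55 with melphalan, against 9.84 and 10.37 without, in U266/LR7, and at 9.73 and 9.66, against 10.87 and 10.84, in U266/s. It fell by 0.73 ± 0.17 in U266/LR7 (adjusted p = 0.0253) and by 1.16 ± 0.17 in U266/s (adjusted p = 0.000217). The disulfide isomerase subunit P4HB and the membrane chaperone CANX had differences within 0.12 of 0 in both lines and did not pass.

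**Figure D3:**
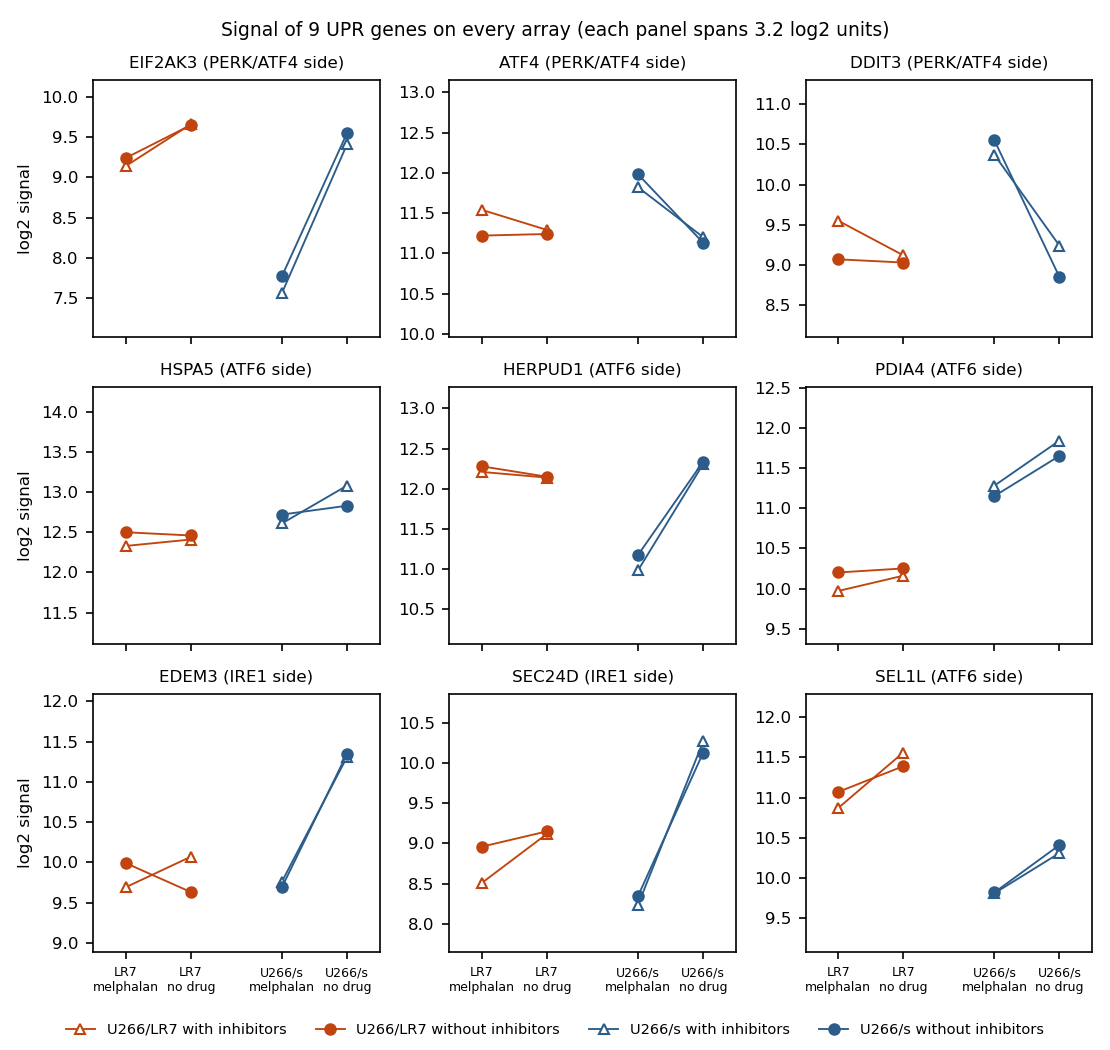
Log2 signal (y axis) of 9 genes on every array, with melphalan left and without (no drug) right in each line, U266/LR7 in orange left of U266/s in blue, open triangles for arrays with inhibitors and filled circles for arrays without. EIF2AK3, HERPUD1, EDEM3 and SEC24D slope steeply in U266/s, while none of them passes in U266/LR7. SEL1L is higher in U266/LR7 than in U266/s on all 4 arrays.

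The difference between the 2 responses passed for 12 of the 35 genes, where 23.9% of all genes passed, 17.9% positive and 5.99% negative. Of genes above the median signal 35.6% passed, 28.5% positive and 7.14% negative, so the 34.3% of the set is near that share. The difference was positive (a smaller fall, or a rise, in U266/LR7) for 10 genes and negative for DDIT3 and ATF4. By side, 1 was positive and 2 negative of 7 on the PERK/ATF4 side, 2 positive of 13 on the ATF6 side, and 7 positive of 12 on the IRE1 side, with medians of -0.09, 0.15 and 0.67, beside -0.01 over all genes and 0.25 over genes above the median signal. The 7 on the IRE1 side were 4 after quantile normalization or cyclic loess, and 4 without any 1 of 4 arrays (both U266/LR7 arrays with melphalan, the U266/s melphalan array and the U266/s array with neither agent). The split of 10 positive and 2 negative was 7 and 5 after quantile normalization, 8 and 3 after median centring and 6 and 3 after cyclic loess. The response was smaller in size in U266/LR7 for 30 of the 35 genes (85.7%), beside 73.9% of all genes, and had the same direction in both lines for 20 of them (57.1%), beside 59.4% of all genes. None of the 5 U266/LR7 calls was kept in every fit that left out 1 array. The count there was 0 without the U266/LR7 melphalan and inhibitors array, 1 without the U266/LR7 melphalan array, 3 without the U266/LR7 array with neither agent, 2 without the U266/s array with neither agent or the U266/s inhibitors array, and 2 with transfection as 3 levels. The count of 12 genes whose responses differed was 7 without the U266/LR7 melphalan array.

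**Figure D4:**
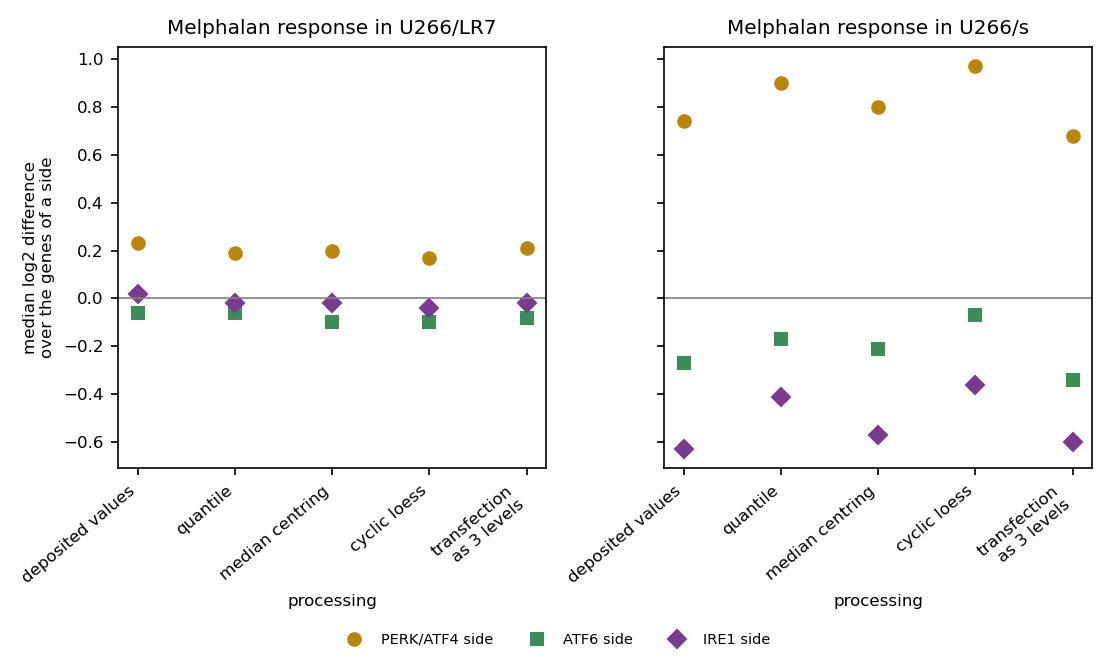
Median log2 melphalan difference (y axis) over the 7 PERK/ATF4-side genes (circles), the 13 ATF6-side genes (squares) and the 12 IRE1-side genes (diamonds) under the deposited values and 4 other treatments of the data (x axis), U266/LR7 left and U266/s right. In U266/s the PERK/ATF4 median (0.74 on the deposited values) lay above 0 and the ATF6 (-0.27) and IRE1 (-0.63) medians below 0 under all 5, while the U266/LR7 medians lay near 0.

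The genes that rose and fell also differed in the length of their genes. In U266/s the 4 genes that rose span a median of 3.3 kb in the GRCh38.p14 annotation (2.1 to 3.9 kb), against 43.0 kb (8.3 to 197.8 kb) for the 16 that fell and 13.0 kb for the 15 that did not pass. DDIT3 (chr12:57516588-57520517) spans 3.9 kb, while EIF2AK3 (chr2:88556741-88628145) spans 71.4 kb, SEC24D (chr4:118722823-118836126) 113.3 kb and ATF6 (chr1:161766320-161964070) 197.8 kb. Across the 35 genes, Spearman's rho of response and span was -0.50 in U266/LR7 and -0.61 in U266/s, and across 16899 protein-coding genes it was -0.34 and -0.41. The points share the same arrays and genes are not independent, so these are descriptions. All protein-coding genes that passed in U266/s followed the same order, with medians of 11.9 kb for those that rose and 57.8 kb for those that fell. The part of gene span in the responses was not tested.

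Without melphalan, 20 of the 35 genes differed, of which 5 were higher and 15 lower in U266/LR7, where 34.7% of all genes passed, 16.9% higher and 17.8% lower (47.4%, 24.6% and 22.7% of genes above the median signal). The median difference of the 35 genes was -0.28, beside -0.04 over all genes and 0.01 over genes above the median signal. On the ATF6 side 6 of 13 genes were lower and 1 higher. Without the U266/s inhibitors array 2 were lower, the calls of HSPA5, HSP90B1, MANF and HYOU1 being lost. PDIA4 was at 10.16 and 10.25 in U266/LR7, against 11.84 and 11.65 on the U266/s arrays, a difference of -1.54 ± 0.14 (adjusted p = 4.92e-06). CRELD2, an ER-resident folding factor, was at 7.5 and 7.53 in U266/LR7, against 8.31 and 8.17 on the U266/s arrays, and HYOU1, the exchange factor of BiP, was at 9.23 and 9.62, against 9.97 and 9.95. Their differences were -0.73 ± 0.14 (adjusted p = 0.00152) and -0.54 ± 0.15 (adjusted p = 0.0142). HSPA5 (-0.52 ± 0.11), HSP90B1 (-0.51 ± 0.11) and MANF (-0.49 ± 0.14) were lower as well. SEL1L was the exception, at 11.56 and 11.39 in U266/LR7, against 10.31 and 10.41 on the U266/s arrays (1.11 ± 0.13, adjusted p = 4.96e-05).

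On the IRE1 side 3 of 12 genes were higher and 5 lower in the same comparison, and 1 was higher without the U266/s array with neither agent. The ERAD ligase gene SYVN1 (0.66 ± 0.15), EDEM1 (0.74 ± 0.19) and the co-chaperone gene DNAJB9 were higher in U266/LR7. DNAJB9 was at 8.94 and 9.56 in U266/LR7, against 8.44 and 8.42 on the U266/s arrays (0.82 ± 0.18, adjusted p = 0.00409). Of the translocation and export genes, 4 of 5 were lower, with SEC11C at 9.52 and 9.54 in U266/LR7, against 10.63 and 10.99 on the U266/s arrays (-1.28 ± 0.15, adjusted p = 4.90e-05), SEC24D at -1.06 ± 0.16, SEC61B at -0.79 ± 0.15 and SEC23B at -0.42 ± 0.13. EDEM3 was lower in U266/LR7 (-1.48 ± 0.17, adjusted p = 3.33e-05), and its U266/LR7 level without melphalan (9.85 ± 0.31, SD, n = 2 arrays) stood beside a U266/s level with melphalan of 9.72 ± 0.05.

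The sensors themselves did not pass without melphalan. EIF2AK3 differed by 0.17 ± 0.14, ATF6 by -0.18 ± 0.12 and ERN1 by 0.06 ± 0.15, and ATF4 and DDIT3 by 0.10 ± 0.13 and 0.03 ± 0.17. The dimmer ATF4 cluster differed by 0.42. Downstream of ATF4, TRIB3 was at 7.46 and 7.49 in U266/LR7, against 8.57 and 8.38 on the U266/s arrays (-1.0 ± 0.15, adjusted p = 0.000315), PPP1R15A differed by -0.96 ± 0.25 and CHAC1 by 0.63 ± 0.17. CREB3L2 (-0.75 ± 0.17) and P4HB, at 12.72 and 12.67 against 13.05 and 13.00 (-0.33 ± 0.09, adjusted p = 0.0130), were lower in U266/LR7. A dimmer P4HB cluster differed by -0.22, and the P4HB call was lost when a gene's clusters were averaged. The 15 genes that did not pass lay between -0.55 (SDF2L1) and 0.32 (ASNS). All 20 calls held under the 3 further normalizations, while 8 of them held in every fit that left out 1 array, the count being 11 without the U266/s inhibitors array.

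**Figure D5:**
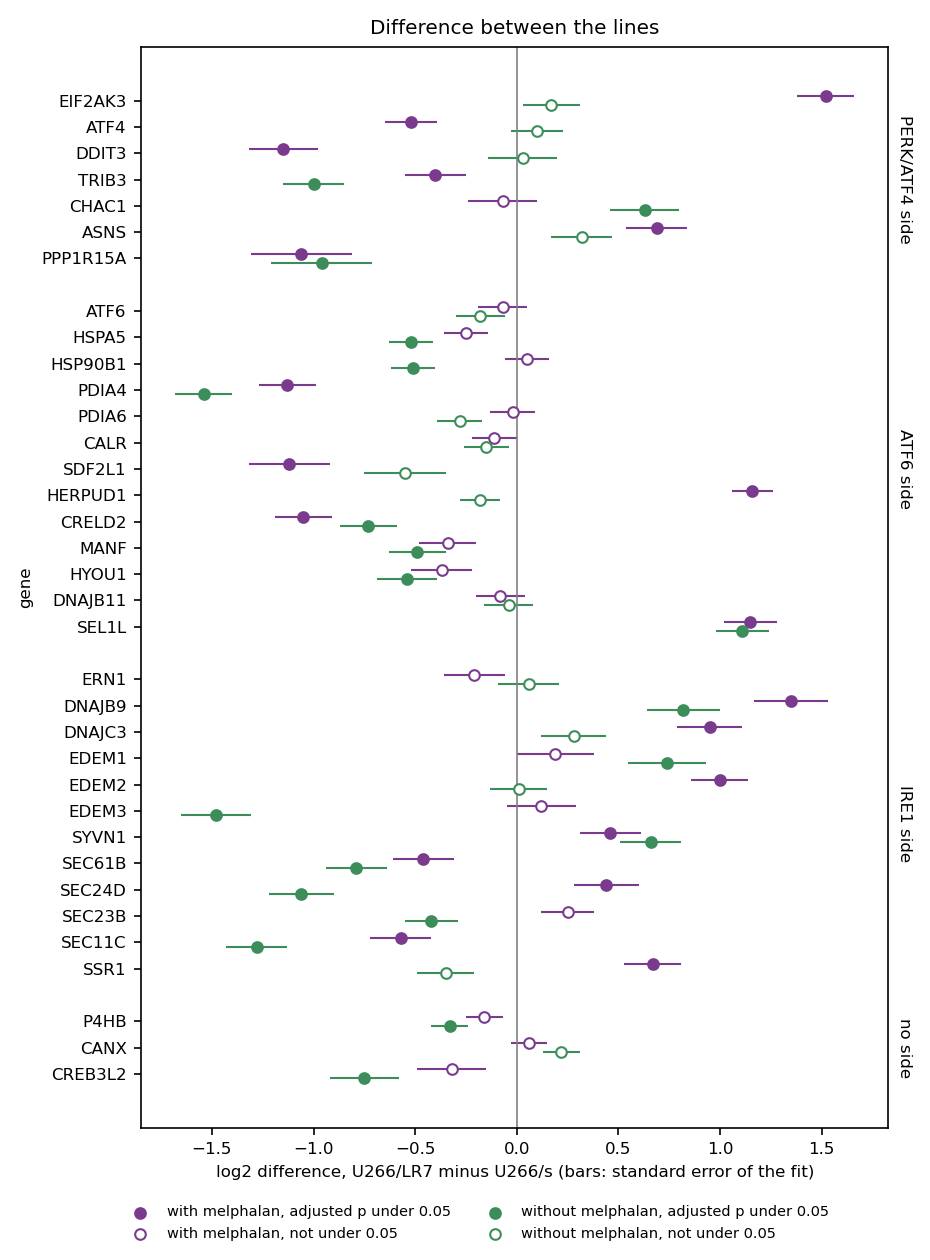
Log2 difference between U266/LR7 and U266/s (x axis) for each gene (y axis, grouped by side) with melphalan in purple above without melphalan in green, with the standard error of the fit as bars and filled points for an adjusted p under 0.05. EIF2AK3 (1.52) and HERPUD1 (1.16) pass to the right of 0 with melphalan and do not pass without it, and PDIA4 lies left of 0 in both states (-1.13 with and -1.54 without).

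With melphalan, U266/LR7 differed from U266/s in 19 of the 35 genes, 10 of them higher and 9 lower, where 51.7% of all genes passed, 27.7% higher and 24.0% lower. Of genes above the median signal 65.5% passed, 45.2% higher and 20.3% lower, beside 28.6% higher and 25.7% lower in the set. EIF2AK3 was higher in U266/LR7 by 1.52 ± 0.14 (adjusted p = 6.20e-06) and DDIT3 lower, with a difference of -1.15 ± 0.17 (adjusted p = 0.000216), followed by PPP1R15A (-1.06 ± 0.25), ATF4 (-0.52 ± 0.13) and TRIB3 (-0.40 ± 0.15). The dimmer ATF4 cluster differed by -1.05. ASNS was higher (0.69 ± 0.15). Of the 6 ERAD genes, 4 were higher and none lower, namely HERPUD1 (1.16 ± 0.10), SEL1L (1.15 ± 0.13), EDEM2 (1.0 ± 0.14) and SYVN1 (0.46 ± 0.15). The calls of ASNS and SYVN1 were lost after quantile normalization and after cyclic loess. DNAJB9 was at 9.46 and 9.45 in U266/LR7, against 8.16 and 8.06 on the U266/s arrays (1.35 ± 0.18, adjusted p = 9.78e-05), and DNAJC3 was higher by 0.95 ± 0.16.

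The ATF6-side genes PDIA4, SDF2L1 and CRELD2 were lower in U266/LR7 with melphalan as well. SDF2L1 was at 8.04 and 7.90 in U266/LR7, against 9.43 and 8.75 on the U266/s arrays (-1.12 ± 0.20, adjusted p = 0.000851), CRELD2 at 7.54 and 7.45, against 8.53 and 8.56 (-1.05 ± 0.14, adjusted p = 8.50e-05), and PDIA4 at 9.97 and 10.20, against 11.28 and 11.15 (-1.13 ± 0.14, adjusted p = 4.38e-05). Of the export and translocation genes, SSR1 (0.67 ± 0.14) and SEC24D (0.44 ± 0.16) were higher and SEC11C (-0.57 ± 0.15) and SEC61B (-0.46 ± 0.15) lower. The sign of SEC24D was the opposite of that without melphalan, and its call with melphalan was lost under each of the 3 further normalizations. The 16 genes that did not pass lay between -0.37 (HYOU1) and 0.25 (SEC23B). The split of 10 higher and 9 lower depended on the scaling of the arrays, being 7 and 16 after quantile normalization, 9 and 13 after median centring and 7 and 19 after cyclic loess, when 10 of 13 ATF6-side genes were lower.

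The inhibitors of miR-221 and miR-222, compared over 4 arrays with against 4 without, moved no gene of the set past the threshold. With limma, 0 of 35 passed, where 0.0434% of all genes (8) passed, 0.0271% higher and 0.0163% lower, and 3 had an unadjusted p under 0.05. These were CHAC1 (0.42 ± 0.12, limma adjusted p = 0.548), EDEM1 (0.38 ± 0.13, adjusted p = 0.667) and HSP90B1 (-0.17 ± 0.08, adjusted p = 0.767). CHAC1 and HSP90B1 kept their direction in 3 of 4 matched array pairs and EDEM1 in 4 of 4. All differences lay between -0.22 and 0.42. The effect of the inhibitors with melphalan minus that without passed for 0 of 35 genes, where 0.0217% of all genes (4) passed, and 1 gene, SEC61B (0.44 ± 0.17), had an unadjusted p under 0.05. Every alternative run for these 2 comparisons also gave 0 of 35.

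Beyond the set, 101 of 108 other genes of the same pathway were measured. In U266/LR7, 7 rose and 4 fell with melphalan, and in U266/s 9 rose and 44 fell, with medians of 0.04 and -0.26. These are 10.9% and 52.5% of the 101, beside 6.62% and 43.4% of all genes and 10.1% and 57.6% of genes above the median signal. By direction, 6.93% rose and 3.96% fell in U266/LR7, beside 4.74% and 5.38% of genes above the median signal. In U266/s 8.91% rose and 43.6% fell, beside 18.6% and 39.0%. Of the 26 PERK/ATF4 genes among them, 6 rose and 0 fell in U266/LR7 (median 0.27), and 4 rose and 9 fell in U266/s (median 0.01, where the 7 of the set have 0.74). Of the 10 ATF6 genes 1 rose and 1 fell in U266/LR7 and 7 fell in U266/s, and of the 36 IRE1 genes 3 fell in U266/LR7 and 22 in U266/s. The response differed between lines for 34 of the 101 (33.7%), 31 positive and 3 negative, beside 23.9% of all genes and 35.6% of those above the median signal. The positive and negative shares were 30.7% and 2.97%, near the 28.5% and 7.14% of genes above the median signal. XBP1, the factor activated by IRE1, fell in both lines, by 0.50 ± 0.11 in U266/LR7 (adjusted p = 0.0200) and by 0.67 ± 0.11 in U266/s (adjusted p = 0.000490), as total mRNA since the spliced form is not told apart. In U266/s the largest rises were those of ATF3 (1.48 ± 0.14), a stress transcription factor downstream of ATF4, STC2 (0.93 ± 0.16), a secreted glycoprotein, and ERP29 (0.85 ± 0.14), an ER folding factor. The largest falls there were those of ERO1B (-2.15 ± 0.17), the oxidase that recharges disulfide isomerases, NFE2L2 (-2.02 ± 0.18), which encodes the antioxidant factor NRF2, and SEC23A (-1.75 ± 0.16), a COPII subunit. ERO1B ended at 5.69 ± 0.25 (SD, n = 2 arrays), below the lower quartile of those arrays (6.0 and 6.02). In U266/LR7 the largest rises were those of KDELR3 (0.94 ± 0.24), a receptor that returns ER proteins from the Golgi, CTH (0.83 ± 0.14), a cysteine-making enzyme under ATF4, and STC2 (0.83 ± 0.16), and the largest falls those of MAP3K5 (-0.91 ± 0.17), the kinase ASK1 downstream of IRE1, SIL1 (-0.63 ± 0.15), an exchange factor of BiP, and SPCS3 (-0.62 ± 0.12), a signal peptidase subunit. The responses differed farthest for NFE2L2 (2.31 ± 0.25), ERO1B (1.82 ± 0.24) and SEC23A (1.65 ± 0.23) on the positive side and for ERP29 (-0.92 ± 0.20), ATF3 (-0.76 ± 0.19) and UBE2G2 (-0.76 ± 0.21), an ERAD ubiquitin-conjugating enzyme, on the negative side.

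Between the lines without melphalan, 23 of the 101 genes were higher and 27 lower in U266/LR7, led by KDELR3 (1.90 ± 0.24), ERP29 (1.77 ± 0.14) and CTH (1.56 ± 0.14) on one side and by PDIA5 (-1.74 ± 0.15), a disulfide isomerase, ERO1B (-1.24 ± 0.17) and WFS1 (-1.10 ± 0.16), an ER membrane protein, on the other. These are 22.8% and 26.7% of the 101, beside 16.9% and 17.8% of all genes and 24.6% and 22.7% of genes above the median signal. With melphalan 49 were higher and 12 lower, led by KDELR3, SRP54 (2.20 ± 0.16), a subunit of the signal recognition particle, and SEC23A (2.12 ± 0.16), and by BHLHA15 (-1.29 ± 0.15), the secretory cell factor MIST1, PDIA2 (-0.85 ± 0.13) and SIL1 (-0.71 ± 0.15). Their shares were 48.5% and 11.9%, beside 27.7% and 24.0% of all genes and 45.2% and 20.3% of genes above the median signal. KDELR3 was at 9.21 ± 0.48 in U266/LR7 with melphalan, against 5.72 ± 0.44 in U266/s (SD, n = 2 arrays each), the second below the lower quartile of those arrays, so that no exact size is given to its difference. XBP1 differed by 0.22 ± 0.11 without melphalan, which did not pass (adjusted p = 0.147), and by 0.39 ± 0.11 with melphalan (adjusted p = 0.0109).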

How the data were processed

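RMA in Affymetrix Expression Console produced the deposited log2 signals, per the submitters' processing notes; their versions are not given in the files or labels. Of 33297 clusters, 19460 have 1 symbol in the platform annotation, 1754 several and 12083 none, and 19429 matched RefSeq by gene ID. The brightest cluster per gene left 18417 genes. They were fitted with limma (3.58.1, R 4.3.3; lmFit and eBayes with an intensity trend), with terms for line, melphalan, inhibitors and line by melphalan (3 residual degrees of freedom, median residual SD 0.139). The fit of inhibitors by melphalan has 1 more term. Its scripts were tested on simulated data. The number of arrays limits the precision. Array values are given for ATF6, ERN1, EIF2AK3, ATF4, DDIT3 and HSPA5 and, per side, for the 4 genes with the largest called differences; of the wider pathway, XBP1 and the 3 largest called rises and falls are named. Members and lists were chosen with earlier results of these data known. Alternatives changed the normalization, the filter, the clusters, the variance trend, the model and the arrays.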

Additional observations from a re-analysis of the deposited data

Results flagged for a closer look

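The test of the difference between the 2 melphalan responses (U266/LR7 minus U266/s, log2) singled out 12 genes of the set, with limma adjusted p-values under 0.05. Among the sensors and factors these were EIF2AK3 (1.35), DDIT3 (-1.18) and ATF4 (-0.62). Among the ATF6-side genes they were HERPUD1 (1.34) and HSP90B1 (0.56). On the IRE1 side they were the co-chaperone DNAJC3 (0.67), the ERAD genes EDEM3 (1.60) and EDEM2 (0.99), and the translocation and export genes SEC24D (1.50), SSR1 (1.01), SEC11C (0.71) and SEC23B (0.67). The calls of EIF2AK3, DDIT3, HERPUD1, EDEM2, EDEM3, SEC24D and SSR1 held under all alternatives run, and those of the other 5 were lost under at least 1. No group has enough arrays to be examined for a stray array.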

How the results depend on the processing

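No call of the 35 genes changed its direction under any alternative run. The count of genes called for melphalan in U266/LR7 was 2 with transfection as 3 levels, against 5. Leaving out 1 array at a time gave 0 to 5 genes for melphalan in U266/LR7, 14 to 24 for melphalan in U266/s, 7 to 13 for the difference between the responses (7 without the U266/LR7 melphalan array), 11 to 21 for the lines without melphalan, 13 to 21 for the lines with melphalan and 0 for the inhibitors in either comparison. The lone array that such a fit leaves in a group is assumed to vary like the others. Calls kept under all alternatives numbered 0 of 5, 12 of 20, 7 of 12, 8 of 20 and 11 of 19, in the same order. Over all genes the counts ran from 250 to 1472, 4258 to 8782, 2443 to 5253, 4430 to 6432 and 6152 to 10209, and from 0 to 20 and 0 to 215 for the inhibitors alone and by melphalan. The additive fit gives a value only for the inhibitors, and the inhibitor comparisons have none with transfection as 3 levels. No paired analysis was possible because the labels give no replicate numbers. Arrays of equal inhibitor state are matched by the inhibitor term that the fit already holds.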
